A study of Mus musculus with 16 samples.

Results

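The genes described here are the 42 members of a module of glycolysis, pyruvate and glycogen metabolism, out of the 54347 genes listed for wt1-SAM brown adipocytes. They were chosen by gene symbol from a list that runs from the hexokinases to the enzymes that build and cut glycogen, and all 42 symbols were found. Of these, 40 passed the filter on low counts and were tested. *Aldoc*, an aldolase isoform, and *Pygl*, the liver isoform of glycogen phosphorylase, were under the filter, with levels of at most 0.623 and 0.252 CPM (counts scaled to the size of the library) in any library. wt1-SAM is an immortalized mouse brown preadipocyte line with a stable CRISPRa SAM system, in which a dead Cas9 and recruited activators raise transcription where a single guide RNA (sgRNA) binds. The study used it to ask what activation of the long noncoding RNA *Gm15551* does in mature cells with and without β-adrenergic stimulation.

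All cells were differentiated, reverse transfected at day 4 with 250 ng of plasmid DNA and collected at day 7. Empty vector control cells received the empty sgRNA plasmid and no isoproterenol. Stimulated empty vector cells received the same plasmid and 1 µM isoproterenol, an agonist of β-adrenergic receptors, for the last 24 h. The sgRNA control and stimulated sgRNA cells were handled likewise, but received a pair of plasmids with guides against *Gm15551*. Each group held the replicate numbers 3, 4, 5 and 6, so there were 4 groups of 4 libraries and 16 libraries in all. The sources do not say whether the numbers are separate cultures, and the p-values then measure the spread between these libraries, which may be technical. The cells are of 1 line, without the blood supply and nerves of the tissue.

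Glycolysis splits glucose into pyruvate in the cytosol. Pyruvate is then reduced to lactate, or enters mitochondria through a carrier and is made into acetyl-CoA by the pyruvate dehydrogenase complex, which pyruvate dehydrogenase kinases switch off and a phosphatase switches on. Pyruvate carboxylase turns pyruvate into oxaloacetate instead, and the cytosolic phosphoenolpyruvate carboxykinase *Pck1* supplies adipocytes with the backbone of new triglyceride. Brown adipocytes take up much glucose when they are stimulated, and β-adrenergic signals act through cyclic AMP, which also governs the building and breakdown of glycogen.

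Total counts per library ranged from 9053521 to 16546187. The counts outside the ribosomal RNA gene ranged from 5900607 to 12959314, since that gene held 11.7% to 51.8% of a library. The libraries above 40% were the stimulated empty vector library of replicate 3 (41.6%) and both empty vector libraries of replicate 5 (47.3% in control and 51.8% in stimulated cells). The members took 1.28% to 2.31% of the counts outside ribosomal RNA, and the lowest share was that of the empty vector control library of replicate 5. *Gm15551* itself was between 0.39 and 1.35 CPM in empty vector control cells and between 1.42 and 3.92 CPM in sgRNA control cells. In stimulated cells it was between 0 and 0.421 CPM with empty vector and between 1.04 and 2.04 CPM with sgRNA. It was higher with sgRNA in 8 of 8 pairs of libraries of the same treatment and replicate number. The averaged sgRNA effect on it, as log2 fold change ± SE, was 2.37 ± 0.39 (adjusted p = 0.0989), and 2.41 ± 0.28 (adjusted p = 0.00055) when the replicate number was a term (the replicate block). The averaged isoproterenol effect on it was −1.69 ± 0.39 (adjusted p = 0.0214), and −1.67 ± 0.29 (adjusted p = 0.00062) with the block, and 8 of 8 pairs were lower. Its levels in stimulated sgRNA cells thus overlapped those in empty vector control cells. *Ucp1*, the uncoupling protein that marks stimulated brown adipocytes, was at most 0.979 CPM in control libraries and 4.37 to 15.5 CPM in stimulated ones, so these did not overlap. Adipocyte markers summed to between 12400 and 26900 CPM and were lower with isoproterenol in 8 of 8 pairs. Past the test with the replicate block, 5 of 7 were lower and none higher, against 10.4% and 10.9% of all genes. The sums of brown adipocyte, preadipocyte and macrophage markers were higher in 8 of 8 pairs, at 195 to 569, 31.8 to 154 and 6.44 to 22.4 CPM. The brown adipocyte sum was mostly *Elovl3* (means of 236 and 266 CPM in control and stimulated empty vector cells). With the block 4 of the 7 brown markers were higher and 0 lower (background 10.9% and 10.4%). *Prdm16* (−0.23 ± 0.21) and *Cox7a1* (0.51 ± 0.33) did not pass, and *Dio2* had means of at most 0.02 CPM. The macrophage sum was nearly all *Cd68* (means of 10.6 and 18.8 CPM in control and stimulated empty vector cells), the 1 tested marker of 4, while *Ptprc* and *Csf1r* had means of at most 0.257 CPM. In the preadipocyte sum *Ly6a* (26 and 49.3 CPM) was the 1 marker to pass with the block, and *Col1a1* had means of 14.2 and 13.2 CPM. Skeletal muscle markers were at 0.935 to 4.07 CPM with *Myod1* at 0, endothelial markers at 1.42 to 3.09 CPM and hepatocyte markers at up to 0.421 CPM. The part of these markers in the changes of the members was not tested, and in bulk RNA fewer cells of a type and less RNA per cell cannot be told apart.

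Levels per kilobase of exon spread widely over the module. *Gapdh*, the glyceraldehyde 3-phosphate dehydrogenase, had the highest mean over all libraries with 1450 CPM per kilobase. It was followed by *Aldoa* with 1220, *Ldha* with 905 and *Pgk1* with 888 CPM per kilobase. In total, 14 members were above 100, 11 between 10 and 100, 11 between 1 and 10, and 6 below 1 CPM per kilobase. In the aldolases, lactate dehydrogenases, glycogen synthases and phosphorylases 1 isoform carried most of the RNA. *Aldoa* exceeded *Aldoc* (0.112 CPM per kilobase), *Ldha* exceeded *Ldhb* (10.0) and *Gys1* (28.2) exceeded *Gys2* (0.736). The brain form *Pygb* (14) exceeded the muscle form *Pygm* (0.734) among the glycogen phosphorylases. *Pfkl* held 63.2% to 76.9% of the phosphofructokinase RNA per kilobase, and among the PFKFB enzymes *Pfkfb1* and *Pfkfb3* held 52.3% and 37.5% in empty vector control cells. Also mixed were the hexokinases, with 12.2 CPM per kilobase of *Hk2* and 7.71 of *Hk1*, and the pyruvate dehydrogenase kinases, with 33.9 of *Pdk4*, 20.1 of *Pdk1*, 9.94 of *Pdk2* and 6.34 of *Pdk3*.

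The first question was what isoproterenol changes in this module. Averaged over both plasmids, *Ldhb*, *Pdk4* and *Ugp2* rose and *Pcx* fell. That is 3 members higher, against a background of 2.06% of all 13150 genes, and 1 lower, against 2.43%. A member counts as passed at an adjusted p under 0.05 in the quasi-likelihood test of edgeR. Under the replicate block 12 members were higher (background 10.9%) and 8 lower (background 10.4%). The higher ones were *Hk1*, *Pfkp*, *Gapdh*, *Eno1*, *Pkm*, *Ldhb*, *Pdk3*, *Pdk4*, *Pck1*, *Pygm*, *Ugp2* and *Gbe1*. The lower ones were *Pfkfb1*, *Pfkfb3*, *Mpc2*, *Pdha1*, *Pdhb*, *Dlat*, *Pcx* and *Pygb*. The median log2 fold change of the tested members was 0.12, against 0.0047 for all genes. In pairs of the same plasmid and replicate number, 10 members were higher in 8 of 8 (background 8.16% of all genes) and 6 were lower in 8 of 8 (background 7.67%). With a covariate for the ribosomal RNA share and no block, 10 members were higher and 2 lower (background 3.16% and 3.52%).

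**Figure D1:**
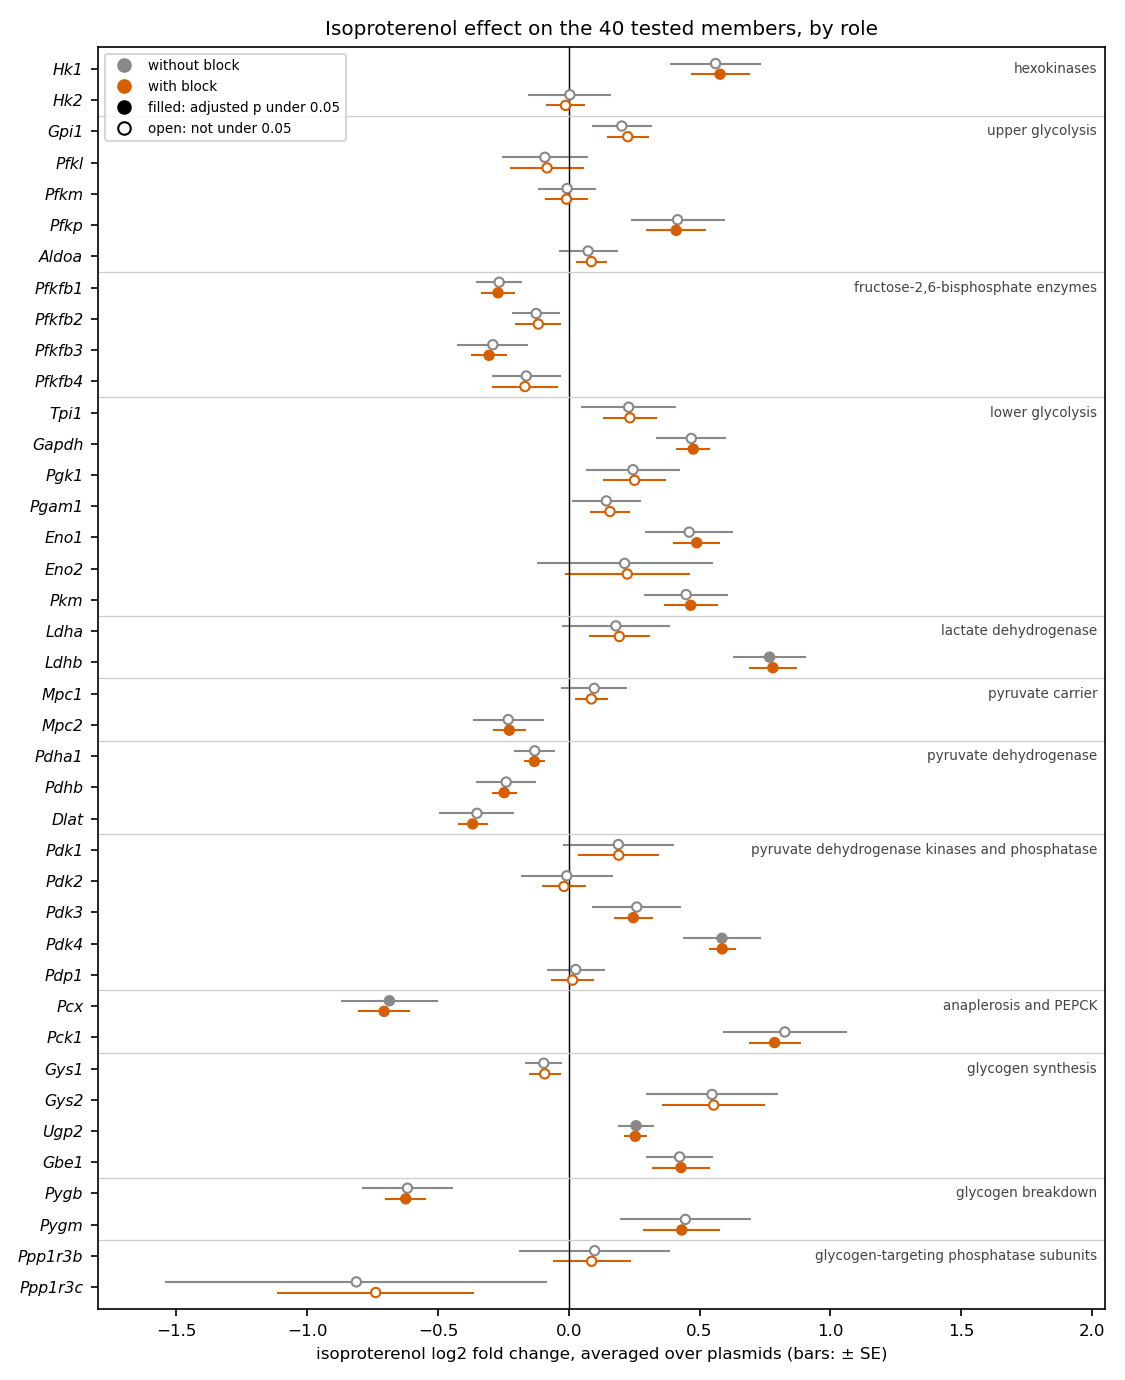
Isoproterenol log2 fold change of the 40 tested members averaged over both plasmids (x axis, bars ± SE), ordered by role, without (grey) and with (orange) the replicate block. Filled points have an adjusted p under 0.05. The estimates of both fits lie close together, while the bars with the block are shorter, and 20 members are filled in orange against 4 in grey.

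Of the hexokinases, which trap glucose in the cell as glucose 6-phosphate, *Hk1* rose with the replicate block and *Hk2* did not pass. *Hk1* was at 31.6, 38.6, 16.1 and 34.0 CPM in replicates 3, 4, 5 and 6 of the empty vector control, and at 30.8, 49.4, 42.5 and 55.4 CPM in the stimulated ones. In sgRNA cells it was at 30.6, 40.9, 20.4 and 29.5 CPM in control and 43.0, 47.0, 37.2 and 51.4 CPM in stimulated libraries. Only the empty vector pair of replicate 3 went the other way, and the groups overlapped through the stimulated empty vector library of replicate 3 and the stimulated sgRNA library of replicate 5. Averaged over the plasmids, the log2 fold change was 0.56 ± 0.17 (adjusted p = 0.0827), and 0.58 ± 0.11 (adjusted p = 0.0018) under the block. *Hk2*, the insulin-responsive form, ranged from 50.6 to 88.4 CPM in control and from 51.8 to 98.8 CPM in stimulated libraries, with a log2 fold change of 0.0042 ± 0.16. The share of *Hk1* in the hexokinase RNA, per kilobase, was 34.2% ± 11.1 (SD, n = 4) in empty vector control and 44.6% ± 9.37 in stimulated cells, and 33.7% ± 9.26 and 42.3% ± 8.62 in sgRNA cells. It was higher after stimulation in 8 of 8 pairs. These shares are a description and were not tested.

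Among the enzymes of upper glycolysis, *Pfkp*, the platelet-type phosphofructokinase, rose with the replicate block. The liver type *Pfkl*, the muscle type *Pfkm*, the isomerase *Gpi1* and the aldolase *Aldoa* did not pass in either fit. *Pfkp* was at 24.1, 25.8, 11.8 and 26.9 CPM in empty vector control and 23.2, 36.9, 18.2 and 39.0 CPM in stimulated empty vector libraries of replicates 3 to 6. In sgRNA cells the values were 22.4, 31.5, 20.4 and 23.3 CPM, and 26.5, 35.7, 32.2 and 36.5 CPM. The groups overlapped, and 7 of 8 pairs were higher after stimulation. The log2 fold change was 0.42 ± 0.18 (adjusted p = 0.237), and 0.41 ± 0.11 (adjusted p = 0.0184) with the block. That call was lost without replicate 4 or replicate 6. *Pfkp* made up 10.1% ± 3.24 of the phosphofructokinase RNA in empty vector control cells and 14.1% ± 3.18 after stimulation, and was higher in 8 of 8 pairs, while *Pfkl* held the largest share in every library.

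**Figure D2:**
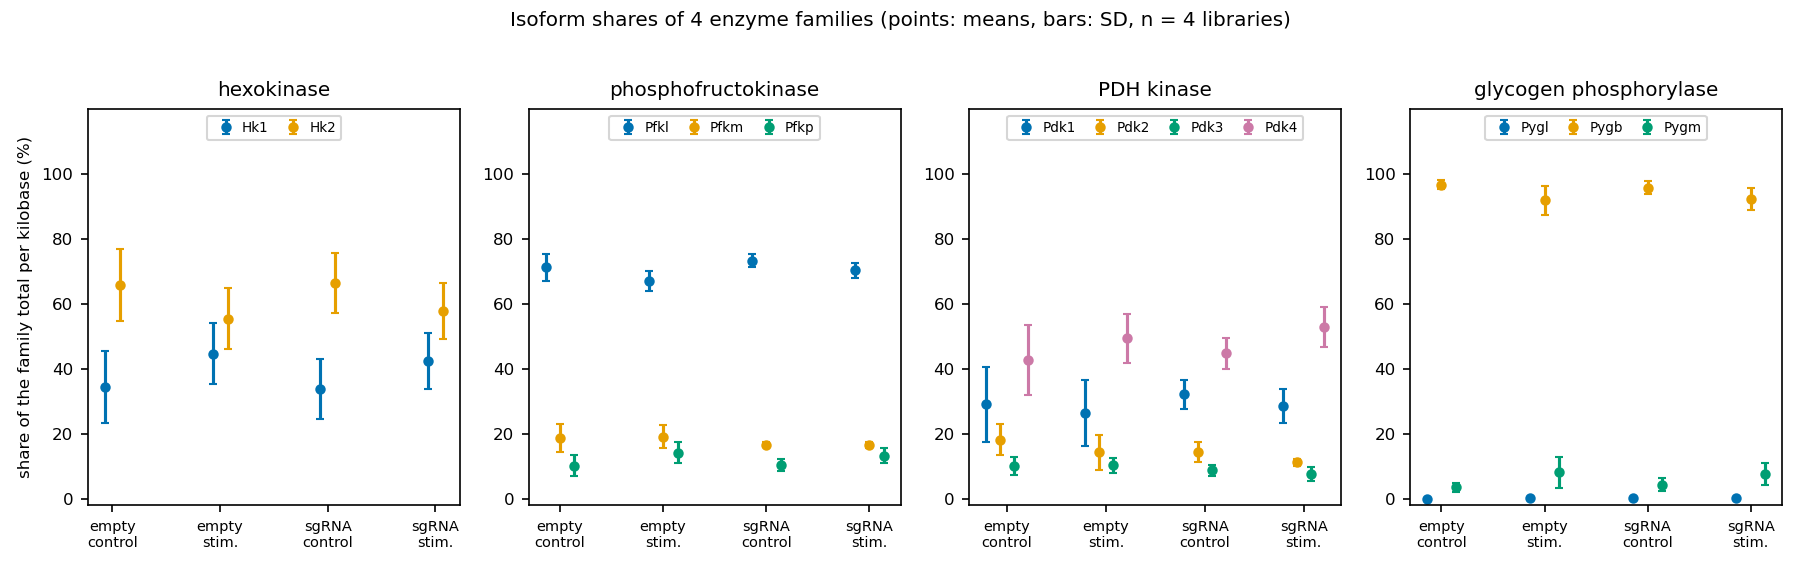
Share of each isoform in the RNA of its enzyme family, per kilobase of exon (y axis, %), in the 4 groups (x axis). Points are means and bars the SD of 4 libraries. *Hk1*, *Pfkp*, *Pdk4* and *Pygm* have higher means in stimulated than in control cells with either plasmid.

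The bifunctional PFKFB enzymes make and remove fructose 2,6-bisphosphate, the activator of phosphofructokinase. All 4 had estimates below 0, while 51% of all genes were above 0, with a median of −0.21, and *Pfkfb1* and *Pfkfb3* fell with the replicate block (background 10.4%). *Pfkfb1* was at 37.1, 32.6, 30.8 and 29.6 CPM in empty vector control and 30.5, 27.1, 27.5 and 22 CPM in stimulated libraries. In sgRNA cells *Pfkfb1* went from 29.7, 35.1, 40 and 30.3 CPM to 28.2, 31.0, 30.0 and 24.6 CPM. Each of its 8 pairs was lower. Isoproterenol gave a log2 fold change of −0.27 ± 0.09 (adjusted p = 0.106), and −0.27 ± 0.07 (adjusted p = 0.00899) with the block, which was lost without replicate 6. *Pfkfb3*, the form with the strongest kinase activity, was at 58.8, 61.6, 75.4 and 57.6 CPM in empty vector control libraries and 38.7, 45.5, 71.3 and 48.5 CPM in stimulated ones. In sgRNA cells *Pfkfb3* was at 56.8, 49.2, 70.3 and 47.6 CPM, and 45.3, 34.9, 60.8 and 45.4 CPM after stimulation. Again 8 of 8 pairs were lower, although replicate 5 stood above the other numbers in all groups. Its log2 fold change was −0.29 ± 0.14 (adjusted p = 0.278), and −0.30 ± 0.07 (adjusted p = 0.00544) with the block, which was lost without replicate 4. *Pfkfb2* (5.93 to 8.36 CPM in control libraries) and *Pfkfb4* (5.09 to 6.36 CPM) did not pass.

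Lower glycolysis, from triose phosphate to pyruvate, had estimates above 0 for all 7 members, as for 51% of all genes, with a median of 0.25. *Gapdh*, *Eno1* and *Pkm* rose with the replicate block (background 10.9%), and none of the 7 passed without it. Of further genes of these steps outside the module, *Eno3*, *Pgam2* and *Bpgm* had estimates of −0.23 ± 0.19, −0.51 ± 0.28 and −0.005 ± 0.11 that did not pass. *Gapdh* was at 2210, 1800, 1240 and 2210 CPM in empty vector control libraries and at 3130, 2420, 1910 and 2690 CPM in stimulated ones. In sgRNA cells it was at 1960, 1880, 1430 and 1810 CPM, and at 2700, 2380, 2180 and 2720 CPM. The sgRNA groups did not overlap, the empty vector groups overlapped through replicate 5, and 8 of 8 pairs were higher. On the log2 scale the estimate was 0.47 ± 0.13 (adjusted p = 0.0588), and 0.48 ± 0.06 (adjusted p = 7.67e-05) with the block. The rows of 237 *Gapdh* pseudogenes held between 63.6% and 73.4% as many counts as *Gapdh* by group, and salmon may have split reads among them. Counted together, a choice made after seeing the data, they gave 0.42 ± 0.12 (adjusted p = 0.0679), and 0.43 ± 0.06 (adjusted p = 0.00013) with the block.

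*Eno1*, the main enolase, was at 402, 341, 155 and 303 CPM in empty vector control and at 433, 513, 297 and 413 CPM in stimulated libraries. In sgRNA cells its values were 352, 377, 242 and 275 CPM, and 475, 455, 376 and 404 CPM. Every pair was higher after stimulation, and the empty vector control library of replicate 5 was the lowest of all. This gave a log2 fold change of 0.46 ± 0.17 (adjusted p = 0.144), and 0.49 ± 0.09 (adjusted p = 0.0012) with the block. *Eno1b*, a retrotransposed copy, held 60.3% to 67.0% of the counts of *Eno1* and *Eno1b* together, so the split between these rows is uncertain. Their sum, a choice made after seeing the data, gave 0.44 ± 0.18 (adjusted p = 0.202), and 0.47 ± 0.10 (adjusted p = 0.00272) with the block. *Eno2*, the neuronal enolase, was at 0.40 to 2.19 CPM and did not pass. *Pkm*, which encodes the pyruvate kinases M1 and M2, was at 935, 815, 395 and 758 CPM in empty vector control and 807, 1230, 736 and 1150 CPM in stimulated libraries. In sgRNA cells *Pkm* was at 778, 849, 580 and 787 CPM, and at 939, 1120, 931 and 1140 CPM. Of the 8 pairs 7 were higher, with the empty vector libraries of replicate 3 as the exception, and the sgRNA groups did not overlap. The log2 fold change was 0.45 ± 0.16 (adjusted p = 0.14), and 0.47 ± 0.10 (adjusted p = 0.00425) with the block. Of the remaining members, *Tpi1*, *Pgk1* and *Pgam1* had estimates of 0.23, 0.25 and 0.14 that did not pass, although *Pgk1* was higher in 8 of 8 pairs.

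Both lactate dehydrogenase genes are members, and *Ldhb* (chr6:142490249-142507957, minus strand of GRCm38), the heart-type subunit, had the smallest adjusted p of the module without the block. It was at 13.7, 8.74, 7.92 and 7.48 CPM in empty vector control and at 15.7, 14.9, 14.5 and 13.7 CPM in stimulated libraries. In sgRNA cells *Ldhb* was at 11.5, 9.96, 9.58 and 7.75 CPM, and at 20.2, 19.0, 21.4 and 12.6 CPM. All 8 pairs were higher and the sgRNA groups did not overlap, while the empty vector groups met at the control library of replicate 3. Isoproterenol gave a log2 fold change of 0.77 ± 0.14 (adjusted p = 0.00404), a 1.70-fold difference, and 0.78 ± 0.09 (adjusted p = 1.87e-05) with the block. Without the block the call was lost without all libraries of replicate 4 or all of replicate 5. *Ldha*, the muscle-type subunit, was at 2260, 1710, 787 and 1370 CPM in empty vector control and 1990, 2230, 864 and 1670 CPM in stimulated libraries. In sgRNA cells it was at 2040, 1840, 1410 and 1450 CPM, and at 2160, 2260, 1750 and 1670 CPM. These ranges overlapped with either plasmid, almost wholly in empty vector cells, and 7 of 8 pairs were higher. The log2 fold change of 0.18 ± 0.21 did not pass (adjusted p = 0.728, and 0.266 with the block). The share of *Ldhb* in the lactate dehydrogenase RNA per kilobase was 0.96% in empty vector control and 1.41% in stimulated cells, and 0.836% and 1.35% in sgRNA cells, so *Ldha* held at least 97.6% in every library.

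**Figure D3:**
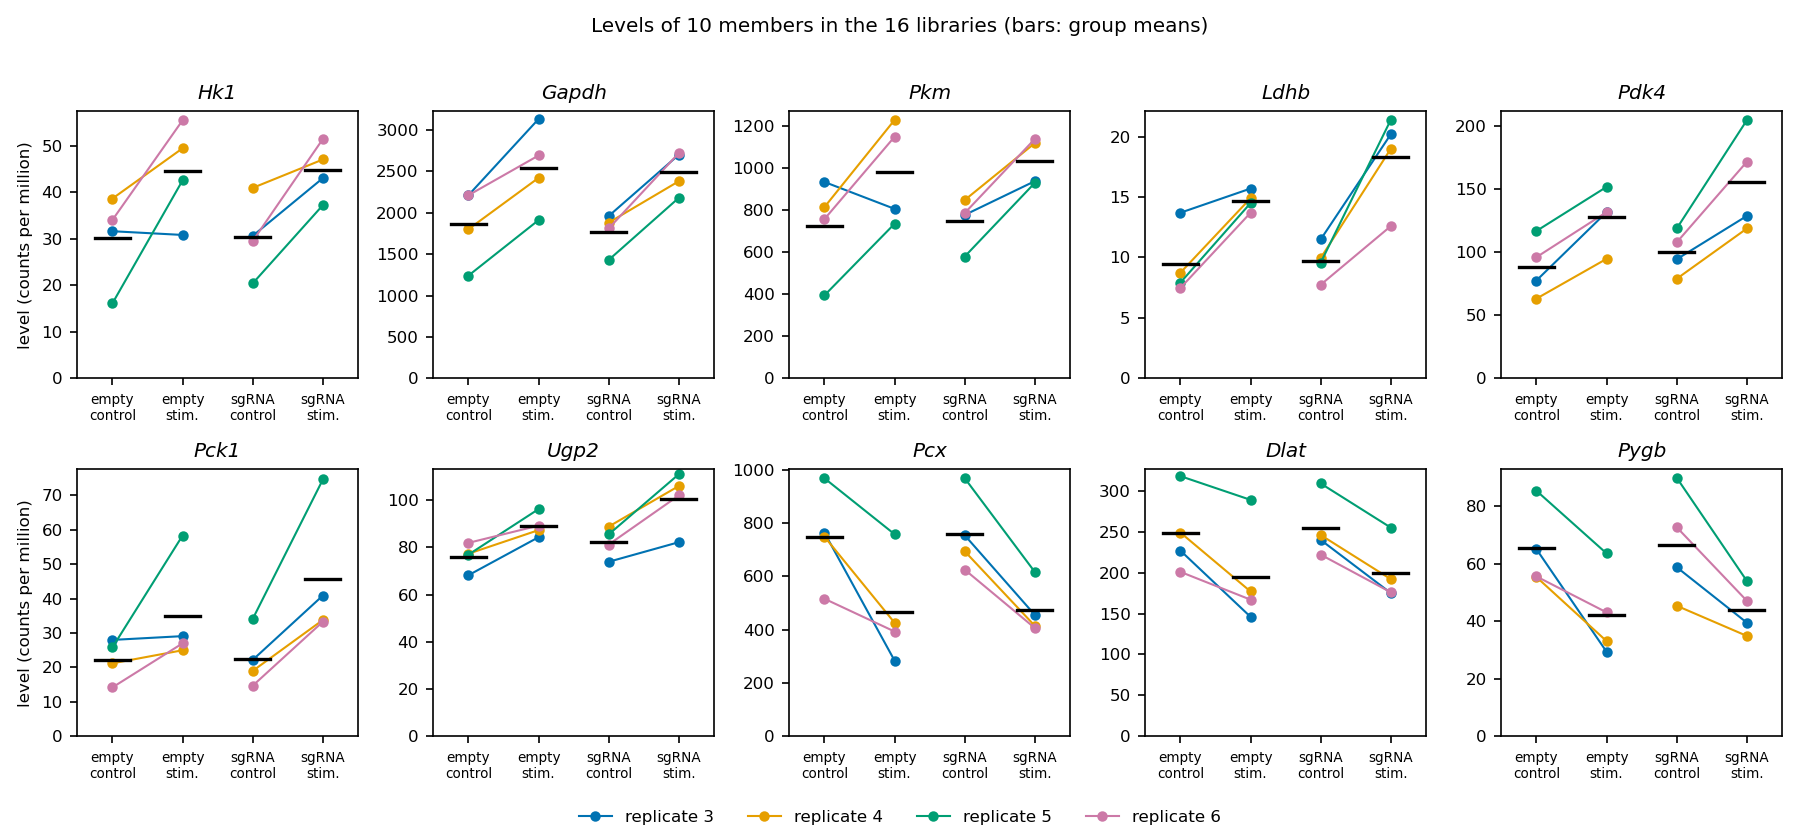
Level (y axis, CPM) of 10 members in the 4 groups (x axis). Lines join control and stimulated libraries of the same plasmid and replicate number, colours mark the number and black bars the group means. *Ldhb*, *Pdk4*, *Pck1*, *Ugp2* and *Gapdh* go up and *Pcx*, *Dlat* and *Pygb* go down in every pair, while *Hk1* and *Pkm* go up in 7 of 8.

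At the mitochondrial entry, *Mpc2*, a subunit of the pyruvate carrier, fell with the replicate block, and its partner *Mpc1* did not pass. *Mpc2* was at 473, 376, 455 and 250 CPM in empty vector control and 325, 313, 334 and 234 CPM in stimulated libraries, and in sgRNA cells at 421, 342, 402 and 320 CPM, and 358, 365, 410 and 254 CPM. The lower level held in 6 of 8 pairs. Its log2 fold change was −0.23 ± 0.14 (adjusted p = 0.409), and −0.23 ± 0.06 (adjusted p = 0.0169) with the block, which was lost without replicate 3 or replicate 5. *Mpc1* had an estimate of 0.10 ± 0.13.

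The 3 listed subunits of the pyruvate dehydrogenase complex all fell with the replicate block (background 10.4% of all genes), and none passed without it. The further subunits *Pdhx* and *Dld*, outside the module, had estimates of −0.11 ± 0.05 and −0.03 ± 0.05 with the block and did not pass. *Dlat*, the acetyltransferase core, was at 227, 249, 318 and 201 CPM in empty vector control and 146, 177, 289 and 167 CPM in stimulated libraries. In sgRNA cells *Dlat* was at 240, 246, 309 and 222 CPM, and at 175, 192, 255 and 176 CPM. Replicate 5 was the highest number in each group, yet 8 of 8 pairs were lower. On the log2 scale the estimate was −0.35 ± 0.14 (adjusted p = 0.206), and −0.37 ± 0.06 (adjusted p = 0.000286) with the block. *Pdhb*, the β subunit of the first enzyme, went from 382, 389, 406 and 272 CPM to 313, 299, 331 and 222 CPM in empty vector cells and from 404, 373, 410 and 328 CPM to 355, 377, 375 and 247 CPM in sgRNA cells. It was lower in 7 of 8 pairs, with a log2 fold change of −0.24 ± 0.12 (adjusted p = 0.292), and −0.25 ± 0.05 (adjusted p = 0.0016) with the block. *Pdha1*, the α subunit, was at 552, 555, 528 and 451 CPM in empty vector control and 496, 459, 484 and 402 CPM in stimulated libraries. In sgRNA cells it was at 562, 573, 607 and 494 CPM, and at 540, 548, 579 and 448 CPM. The differences were small but of 1 sign in 8 of 8 pairs. They gave a log2 fold change of −0.13 ± 0.08 (adjusted p = 0.434), and −0.13 ± 0.04 (adjusted p = 0.0345) with the block, a call lost without any 1 of the 4 replicate numbers.

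Of the kinases that inactivate this complex, *Pdk4* (chr6:5483351-5496309, minus strand) rose in both fits. It was at 77.7, 63.3, 117 and 96.2 CPM in empty vector control and at 132, 94.9, 152 and 132 CPM in stimulated libraries. In sgRNA cells *Pdk4* was at 94.6, 79.1, 119 and 108 CPM, and at 129, 119, 205 and 172 CPM. All 8 pairs were higher, and the ranges overlapped because replicate 5 was the highest and replicate 4 the lowest number in each group. This gave a log2 fold change of 0.59 ± 0.15 (adjusted p = 0.0345), a 1.5-fold difference, and 0.59 ± 0.05 (adjusted p = 8.9e-07) with the block. Without the block the call held in 9 of the 20 settings that left out a library or a replicate number, and with it in 4 of 4. *Pdk3* was at 14.7, 13.3, 7.27 and 15.5 CPM in empty vector control and 17.1, 15.2, 10.7 and 21.2 CPM in stimulated libraries, and in sgRNA cells at 11.1, 11.5, 9.73 and 14.3 CPM, and 12.9, 13.7, 9.21 and 17.1 CPM. It was higher in 7 of 8 pairs, with overlapping groups. The log2 fold change was 0.26 ± 0.17 (adjusted p = 0.479), and 0.25 ± 0.08 (adjusted p = 0.029) with the block, which was lost without replicate 3, 4 or 6. Without the empty vector control library of replicate 5 the estimate was 0.17 in the fit with no block. *Pdk1* (0.19 ± 0.21), *Pdk2* (−0.0079 ± 0.18) and the activating phosphatase *Pdp1* (0.03 ± 0.11) did not pass. The share of *Pdk4* in the kinase RNA per kilobase was 42.7% ± 10.7 in empty vector control and 49.3% ± 7.46 in stimulated cells, and 44.8% ± 4.77 and 52.8% ± 6.08 in sgRNA cells.

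Of the genes that lead from pyruvate to phosphoenolpyruvate, 1 fell and 1 rose with the block. *Pcx* (chr19:4510472-4621752, plus strand), the pyruvate carboxylase, fell in both fits. It was at 764, 749, 968 and 516 CPM in empty vector control and at 284, 426, 758 and 393 CPM in stimulated libraries. In sgRNA cells *Pcx* was at 754, 694, 968 and 625 CPM, and at 455, 414, 616 and 406 CPM. All 8 pairs were lower and the sgRNA groups did not overlap, while the empty vector groups overlapped through replicates 5 and 6. Isoproterenol gave a log2 fold change of −0.69 ± 0.18 (adjusted p = 0.0447), and −0.71 ± 0.10 (adjusted p = 0.000104) with the block. The call held in 5 of 20 such settings without the block and in 4 of 4 with it. *Pck1* (chr2:173153048-173159273, plus strand) had the highest estimate of the module and rose with the block. It was at 28.0, 21.2, 25.8 and 14.2 CPM in empty vector control and at 29.1, 25, 58.3 and 27.0 CPM in stimulated libraries. In sgRNA cells *Pck1* was at 22.2, 19.0, 34.1 and 14.7 CPM, and at 40.9, 33.8, 74.6 and 33.3 CPM. Each pair was higher, by little in the empty vector libraries of replicates 3 and 4, and replicate 5 gave the highest library of both stimulated groups. Its log2 fold change was 0.83 ± 0.24 (adjusted p = 0.0595), and 0.79 ± 0.10 (adjusted p = 3.96e-05) with the block.

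In glycogen synthesis, *Ugp2*, which makes UDP-glucose, rose in both fits, and *Gbe1*, the branching enzyme, rose with the replicate block. *Ugp2* was at 68.2, 77.3, 76.9 and 81.9 CPM in empty vector control and at 84.3, 87.3, 96.2 and 89.2 CPM in stimulated libraries, which did not overlap. In sgRNA cells *Ugp2* was at 73.9, 88.8, 85.5 and 81.2 CPM, and at 82.2, 106, 111 and 102 CPM, with an overlap through replicate 3. On the log2 scale the estimate was 0.26 ± 0.07 (adjusted p = 0.0466), and 0.25 ± 0.04 (adjusted p = 0.000816) with the block. The call held in 2 of 20 such settings without the block and in 4 of 4 with it. *Gbe1* was at 83.8, 94.0, 55.4 and 109 CPM in empty vector control and 117, 128, 86.8 and 125 CPM in stimulated libraries, and in sgRNA cells at 82.2, 115, 113 and 106 CPM, and 119, 137, 165 and 140 CPM. All of its 8 pairs were higher. This gave a log2 fold change of 0.42 ± 0.13 (adjusted p = 0.0752), and 0.43 ± 0.11 (adjusted p = 0.0111) with the block, which was lost without replicate 3. The glycogen synthases did not pass. *Gys1* ranged from 89.1 to 120 CPM in control and from 88.2 to 108 CPM in stimulated libraries, and *Gys2* from 0.935 to 2.54 and from 1.01 to 2.94 CPM. *Gys2* had an estimate of 0.55 ± 0.25 and was higher in 8 of 8 pairs, with an adjusted p of 0.268, and of 0.056 with the block.

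In glycogen breakdown, the 2 tested phosphorylases moved apart with the replicate block. *Pygb*, which carries most of the phosphorylase RNA, was at 65.1, 55.4, 85.4 and 55.6 CPM in empty vector control and at 29.4, 33.1, 63.6 and 43.1 CPM in stimulated libraries. In sgRNA cells *Pygb* was at 58.8, 45.4, 89.9 and 72.7 CPM, and at 39.5, 34.9, 54.0 and 47.1 CPM. All 8 pairs were lower, and replicate 5 was the highest number in each group. The log2 fold change was −0.62 ± 0.17 (adjusted p = 0.0547), and −0.62 ± 0.08 (adjusted p = 3.93e-05) with the block. *Pygm* was at 1.81, 1.97, 0.909 and 1.66 CPM in empty vector control and at 3.22, 2.88, 1.15 and 2.10 CPM in stimulated libraries, and in sgRNA cells at 2.17, 2.43, 1.35 and 1.98 CPM, and 3.82, 2.43, 1.36 and 2.54 CPM. Its pairs were higher in 8 of 8, by next to nothing in sgRNA cells of replicates 4 and 5. Isoproterenol gave a log2 fold change of 0.45 ± 0.25 (adjusted p = 0.386), and 0.43 ± 0.15 (adjusted p = 0.0487) with the block, a call lost without any 1 of the 4 replicate numbers. Without replicate 3 the estimate was 0.29 in the fit with no block. *Pygm* was 3.4% of the phosphorylase RNA per kilobase in empty vector control and 8.03% in stimulated cells, and 4.28% and 7.6% in sgRNA cells. *Pygl* was counted in few libraries, and a count of 0 allows up to 0.166 to 0.39 CPM depending on the library. The subunits that bring protein phosphatase 1 to glycogen, *Ppp1r3b* (3.18 to 15.4 CPM) and *Ppp1r3c* (0 to 2.39 CPM), did not pass.

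The next question was whether isoproterenol acts the same way with either plasmid. In empty vector cells none of the 40 members passed without the block (background 0.479% of genes higher and 0.433% lower). In edgeR 9 of them reached an unadjusted p under 0.05, as did 10.1% of all genes, and DESeq2 called none. With the block 7 were higher and 6 lower (background 4.5% and 5.07%). In sgRNA cells *Ldhb* passed as higher and no member as lower without the block (background 0.403% and 0.319%), and *Ldhb* did not pass there with the 3 libraries above 40% ribosomal RNA left out. With it 7 were higher and 3 lower (background 4.28% and 4.12%). *Hk1*, *Gapdh*, *Eno1*, *Ldhb*, *Pdk4*, *Pck1*, *Ugp2*, *Dlat*, *Pcx* and *Pygb* passed with the block in both, and *Pfkfb3*, *Mpc2* and *Pdhb* in empty vector cells. *Ldhb* had a log2 fold change of 0.62 ± 0.20 in empty vector and 0.91 ± 0.19 in sgRNA cells. *Pck1* had 0.63 ± 0.34 and 1.02 ± 0.33, and *Pdk4* 0.53 ± 0.21 and 0.64 ± 0.21. The test of the difference itself, the interaction, passed for 0 of 40 members in either fit (background 0% and 0%) and for none in DESeq2. At an unadjusted p under 0.05 there was no member without the block and 1 with it (0.395% and 1.51% of all genes), *Pck1*, with a difference of 0.44 ± 0.20 and an adjusted p of 1. A difference between the plasmids was therefore not detectable, which does not show that the responses were equal.

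The third question was what activation of *Gm15551* changes in the module. Averaged over both treatments, 0 of 40 members passed without the block (background 0%). In edgeR 2 of them reached an unadjusted p under 0.05, as did 3.32% of all genes, and DESeq2 called none. With the block *Pdk4* was higher (background 0.586%), at a log2 fold change of 0.24 ± 0.05 and an adjusted p of 0.0487, and 11 members were at an unadjusted p under 0.05, as were 11.5% of all genes. It was higher with sgRNA in 7 of 8 pairs, and the call was lost without replicate 4, 5 or 6. With sgRNA the summed brown adipocyte markers were higher in 7 of 8 pairs and the preadipocyte and macrophage sums in 1 of 8. Under the block *Cidea* was higher (1.05 ± 0.21, adjusted p = 0.0348). In stimulated cells its mean was 3.03 ± 1.23 CPM (SD) with empty vector and 8.49 ± 7.04 CPM with sgRNA. *Elovl3*, which made up most of the brown sum, did not pass with the block (0.18 ± 0.06, adjusted p = 0.232). Nor did *Ucp1*, *Ppargc1a*, *Prdm16* and *Cox7a1* (adjusted p of 0.613, 0.386, 0.817 and 0.705 with the block). *Ly6a* was lower under the block (−0.74 ± 0.11, adjusted p = 0.00491), while *Col3a1* had 0.30 ± 0.15 and did not pass. The part of these markers in this call was not tested. *Pdha1* and *Pdp1* were the members higher with sgRNA in 8 of 8 pairs (background 1.01%), with estimates of 0.15 ± 0.04 and 0.27 ± 0.08 with the block that did not pass (adjusted p = 0.155 and 0.203). The estimate of *Pdp1* came from 8.57 to 11.2 CPM in empty vector control and 9.09 to 13.4 CPM in sgRNA control libraries, which overlapped. No member was lower in 8 of 8 pairs (background 2.07%). Estimates lay above 0 for 33 of 40 members, as for 47% of all genes, with a median of 0.10 against −0.009 for all genes. The ribosomal RNA share was lower with sgRNA in 8 of 8 pairs and higher with isoproterenol in 6 of 8. With that share as covariate and the block, the sgRNA estimate of *Pdk4* was 0.29 and did not pass (adjusted p = 0.482). With the 3 libraries above 40% left out, a choice made after seeing the data, it was 0.30 and passed with the block (adjusted p = 0.0358). In control cells no member passed without the block (background 0%) or with it (background 0.038%) in edgeR, which gave 0 and 1 members at an unadjusted p under 0.05 (1.48% and 5.73% of all genes), and DESeq2 called none. In stimulated cells none passed in either fit (background 0% and 0.137%) in edgeR, which gave 0 and 10 members at an unadjusted p under 0.05 (1.49% and 7.29% of all genes). DESeq2 called no member without the block and 2 with it (background 0.357%). The isoproterenol, sgRNA and interaction comparisons share libraries and are not independent of one another.

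Replicate number held a median of 46.8% of a member's spread on the log2 scale, the same as over all genes (46.8%). Isoproterenol took a median of 15.9% of the spread of the members and 6.79% over all genes. Replicate number has more levels than treatment and so takes more of the spread by chance, which these shares do not correct for. They therefore do not rank replicate number against treatment. Replicate 5 was the lowest number for 16 of the 40 members and the highest for 15, against 26% and 26.8% of all genes. Replicate 6 was the lowest for 15 and replicate 4 the highest for 11, against 30.1% and 21% of all genes. Those lowest in replicate 5 included *Tpi1*, *Gapdh*, *Pgk1*, *Pgam1*, *Eno1*, *Eno2* and *Pkm*, all members of lower glycolysis, with *Ldha*, *Pdk1* and *Hk1*. *Ldha* had means of 2110, 2010, 1200 and 1540 CPM in replicates 3, 4, 5 and 6, and *Tpi1* of 852, 925, 546 and 729 CPM. The summed level of the lower glycolysis members was 3340 CPM in the empty vector control library of replicate 5, the lowest of all, and 8130 CPM in the stimulated sgRNA library of replicate 4, the highest. *Hk2*, *Pfkfb3*, *Dlat*, *Pdk2*, *Pdk4*, *Pcx*, *Pck1* and *Pygb* were among those highest in replicate 5. *Pck1* had means of 30.0, 24.8, 48.2 and 22.3 CPM, and *Pcx* of 564, 571, 827 and 485 CPM. Many glycolysis genes are known targets of the hypoxia-inducible factors, and of 13 tested hypoxia-responsive genes outside glycolysis, 11 were lowest in replicate 5 and 9 highest in replicate 4, against 26% and 21% of all genes. The empty vector libraries of replicate 5 are also those with the most ribosomal RNA. What part oxygen, ribosomal RNA or culture played in this was not tested. With the 3 libraries above 40% ribosomal RNA left out, a choice made after seeing the data, 16 members were higher and 7 lower with isoproterenol under the block (background 8.25% and 7.42%).

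**Figure D4:**
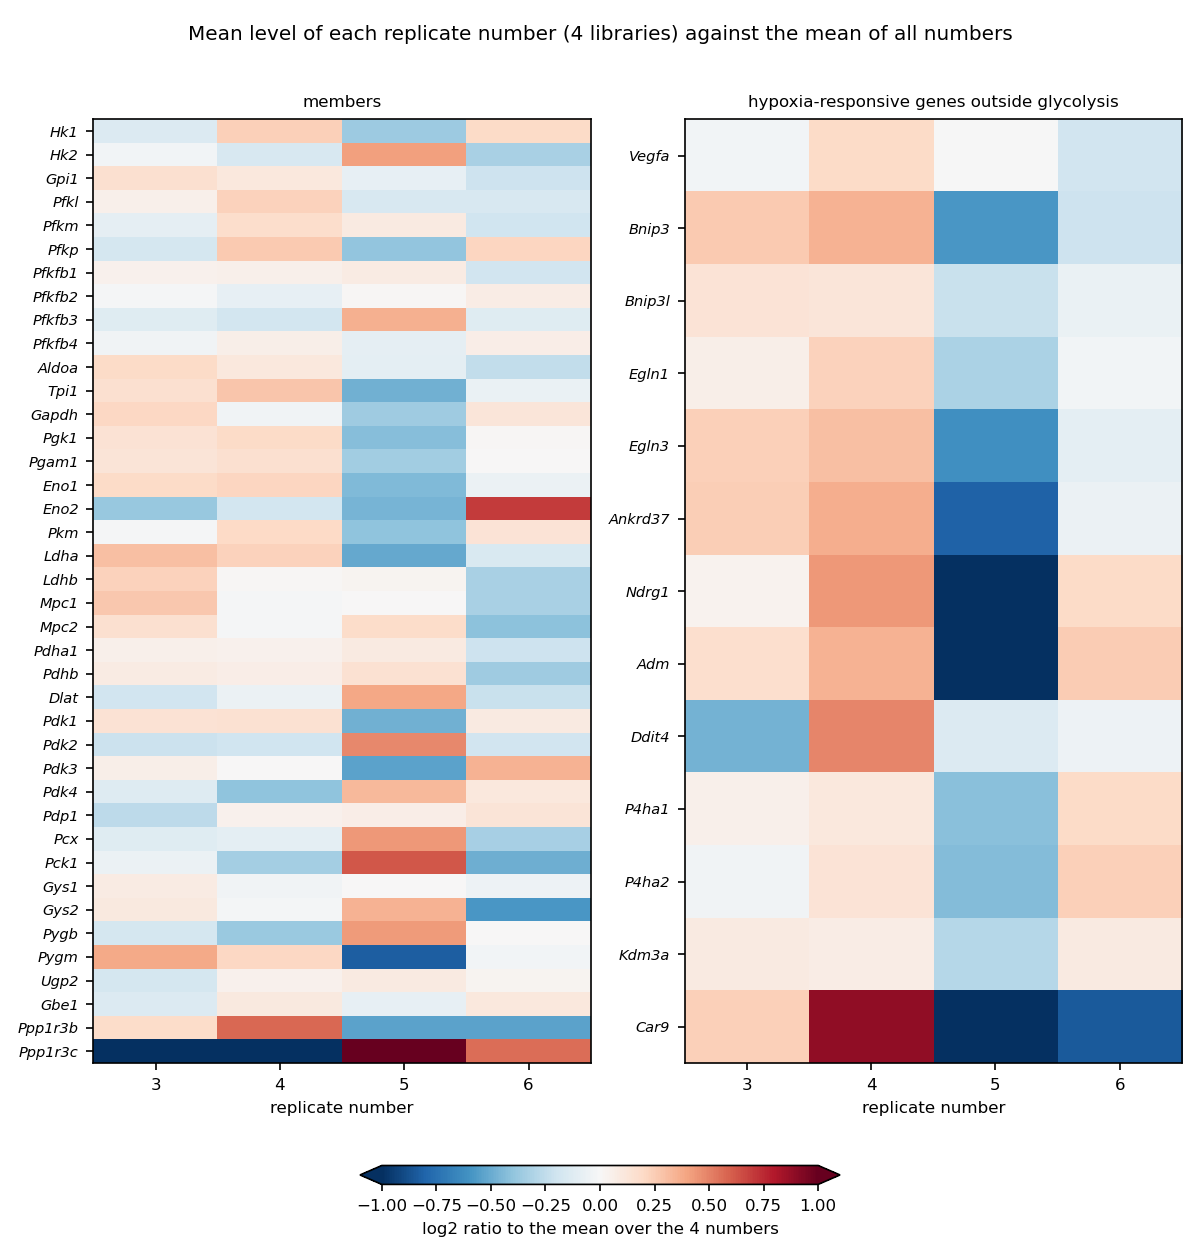
Mean level of each replicate number (x axis, 4 libraries each) as a log2 ratio to the mean of all numbers (colour, from −1 to 1), for the 40 tested members (left) and 13 hypoxia-responsive genes outside glycolysis (right). Replicate 5 is blue for the lower glycolysis members, *Ldha*, *Pdk1* and most of the right panel, and red for *Pck1*, *Pcx*, *Pdk2* and *Pygb*.

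Promoter windows of 300 bases around RefSeq transcript starts (GRCm38.p6) were found for 39 members, in 61 windows, and are shown for a few members because cyclic AMP and hypoxia act through known short elements. Letters were searched on both strands. The half-site TGACG of the cyclic AMP response element was in a window of 13 members (33.3%, against 23% of all genes) and in 24.6% of member windows against 20.8% of all windows, and the palindrome TGACGTCA, which contains it, in that of *Ldha* (2.03% of all genes). The hypoxia-response core ACGTG was in a window of 21 members (53.8%, against 21.8% of all genes), and 41% of member windows held it against 19.6% of all windows. ACGTG lies within the E-box CACGTG, found in 7 members, so these matches overlap. A match is a description of the letters, and no binding was measured here. Of the members that rose in both fits, *Ldhb* and *Pdk4* had neither TGACG nor ACGTG in their windows and *Ugp2* had ACGTG. The half-site of *Pck1* lies at −90 on the minus strand and the palindrome of *Ldha* at −12 from the start. Capitals mark TGACG or its reverse complement in the *Pck1* window (chr2:173152823-173153122, plus strand) and the *Ldha* window (chr7:46845554-46845853, plus strand), each printed 5′ to 3′.
Pck1: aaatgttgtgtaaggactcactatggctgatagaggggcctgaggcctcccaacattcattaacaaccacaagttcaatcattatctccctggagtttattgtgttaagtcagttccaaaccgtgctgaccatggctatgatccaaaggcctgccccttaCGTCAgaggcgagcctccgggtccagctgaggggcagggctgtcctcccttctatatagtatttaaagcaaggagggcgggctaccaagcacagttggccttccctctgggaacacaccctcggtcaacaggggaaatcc
Ldha: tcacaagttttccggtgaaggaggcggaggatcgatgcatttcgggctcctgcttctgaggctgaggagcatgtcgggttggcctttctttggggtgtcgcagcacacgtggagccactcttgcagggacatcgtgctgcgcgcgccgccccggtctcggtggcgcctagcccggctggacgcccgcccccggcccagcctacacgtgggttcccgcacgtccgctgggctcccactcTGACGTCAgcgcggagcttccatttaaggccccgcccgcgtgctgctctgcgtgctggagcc
In the next sequences capitals mark ACGTG or its reverse complement. The *Pgk1* window (chrX:106186850-106187149, plus strand) holds it at −150 and −131, and the *Gapdh* window (chr6:125165724-125166023, minus strand) at 43 after the start.
Pgk1: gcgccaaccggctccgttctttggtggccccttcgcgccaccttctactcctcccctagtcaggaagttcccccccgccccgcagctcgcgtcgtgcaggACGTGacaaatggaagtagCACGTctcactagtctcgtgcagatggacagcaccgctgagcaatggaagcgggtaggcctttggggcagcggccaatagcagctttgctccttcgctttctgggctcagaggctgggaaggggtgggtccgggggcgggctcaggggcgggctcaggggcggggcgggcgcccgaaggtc
Gapdh: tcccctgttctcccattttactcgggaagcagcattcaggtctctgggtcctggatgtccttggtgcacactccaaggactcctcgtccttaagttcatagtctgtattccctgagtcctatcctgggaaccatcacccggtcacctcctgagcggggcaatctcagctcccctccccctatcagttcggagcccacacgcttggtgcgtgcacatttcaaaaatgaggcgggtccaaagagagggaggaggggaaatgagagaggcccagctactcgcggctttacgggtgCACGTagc
Of the 19 tested members with ACGTG, 8 were lowest and 8 highest in replicate 5. For all 40 tested members these counts were 16 and 15, and for all genes the shares were 26% and 26.8%. With isoproterenol under the block, 6 of these 19 were higher and 4 lower, beside 12 and 8 of all 40 tested members. The background was 10.9% of all genes higher and 10.4% lower. Of the 12 tested members with TGACG, 2 were higher, *Pkm* and *Pck1* (background 10.9% of all genes). Another 5 were lower, *Pfkfb3*, *Pdha1*, *Pdhb*, *Dlat* and *Pygb* (background 10.4%). These counts were not tested.

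The effect of isoproterenol on the same pathways was also read from listed genes outside the module. Of 42 further listed genes of glycolysis, pyruvate and glycogen, 29 were tested, of which 2 passed as lower without the block, and 2 as higher and 4 as lower with it (background 2.43% lower without the block, and 10.9% higher and 10.4% lower with it). *Phka2*, a regulatory subunit of phosphorylase kinase, fell by 0.51 ± 0.12 (adjusted p = 0.0228) and *Ppp1r3e*, another glycogen-targeting subunit, by 0.62 ± 0.17 (adjusted p = 0.045) on the log2 scale. With the block, *Pck2*, the mitochondrial phosphoenolpyruvate carboxykinase, fell by 0.40 ± 0.07 (adjusted p = 0.000981), while the cytosolic *Pck1* rose. All 12 genes of the pentose phosphate and glycerol 3-phosphate branches were tested. *Gk*, the glycerol kinase, rose by 0.49 ± 0.12 (adjusted p = 0.0296) and 1 gene, *Gpd1l*, fell (background 2.06% higher and 2.43% lower). With the block 1 was higher and 8 lower (background 10.9% and 10.4%). *Gpd1*, the glycerol 3-phosphate dehydrogenase, fell by 0.69 ± 0.10 (adjusted p = 0.000206) with the block, and the pentose phosphate enzymes *Rpia* and *Taldo1* by 0.41 ± 0.07 (adjusted p = 0.000746) and 0.38 ± 0.05 (adjusted p = 8.84e-05). Of the 13 hypoxia-responsive genes, none passed in edgeR without the block and 1 was below an unadjusted p of 0.05, as were 17.7% of all genes. With the block 3 were higher, *Vegfa*, *Ddit4* and *P4ha2* (background 10.9%). With sgRNA, averaged over both treatments, 1 gene of these lists passed with the block (background 0.586%) and none without it (background 0%). This was *Stbd1*, which encodes a glycogen-binding protein, at 0.64 ± 0.12 (adjusted p = 0.026) and higher in 8 of 8 pairs.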

How the data were processed

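RNA of wt1-SAM brown adipocytes was sequenced in 16 libraries by the authors, who trimmed reads with cutadapt and estimated transcript abundance with salmon against the transcripts of GENCODE M22, or of M22 combined with RNAcentral. The deposited values are estimated counts per gene, stored as whole numbers, and they were used as deposited. Tool versions, strand setting and which of these transcript sets applied are not given in the sources used here. GRCm38 is named in the submitters' processing notes. Libraries held 9053521 to 16546187 counts, and limits for a count of 0 (3 counts) cover counting error only.

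Here, genes were kept by filterByExpr (minimum count 10, minimum total 15), scaled by TMM and fitted in edgeR 4.0.16 (R 4.3.3) by the quasi-likelihood method with a term per group over all libraries. Errors of log2 fold changes are SE from that test, and p-values were adjusted by Benjamini-Hochberg over 13150 genes. Levels are counts scaled to the TMM-corrected library size (CPM), and levels per kilobase use exon lengths of a GENCODE annotation of GRCm38. The study's replicate numbers, taken from the labels, were added as a block in an alternative fit. Libraries of the same number deviated together, with correlations of 0.224 to 0.613 for every pair of groups. Between libraries of different numbers and groups they were −0.512 to 0.516, so the ranges overlapped, and they do not by themselves establish pairing. Every correlation within a number was above the threshold of 0.1, and blocked values therefore stand beside the others. The median biological coefficient of variation was 20.4% without and 10.2% with the block.

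The members and gene lists were chosen with earlier results of these data known. Full values were given for members that passed in the averaged isoproterenol or sgRNA comparison in either fit, and for isoforms of the same enzyme as contrast. Of the further lists, at most 8 passing genes by size of change were given with values. *Pdhx*, *Dld*, *Eno3*, *Pgam2*, *Bpgm* and the single markers were added after their values were seen. Alternatives were DESeq2 1.42.0, DESeq2 size factors, no filter on low counts, a log2 fold change bound of 0.5, the ribosomal RNA gene left out or its share as a covariate, and each library or replicate number left out. Only the averaged isoproterenol comparison of the fit without the block was tried on simulated counts. These held no replicate differences, and changes larger than the averaged isoproterenol changes of the members. The fit with the block was not tried in this way.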

Additional observations from a re-analysis of the deposited data

Results flagged for a closer look

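Of 160 groups of 4 libraries (40 members in 4 groups), 5 held a library that stood apart from the other 3 by Dixon's test at the 95% level, where chance gives about 8 (1 in 20). *Hk2* was at 98.7 CPM in the stimulated empty vector library of replicate 5, with the others at 51.8 to 55.6 CPM. *Pck1* was at 58.3 CPM in the same library, with the others at 25 to 29.1 CPM. *Eno2* was at 2.19 CPM in the stimulated empty vector library of replicate 6, with the others at 1.03 to 1.15 CPM. *Pgk1* was at 2150 CPM in the stimulated sgRNA library of replicate 4, with the others at 1810 to 1840 CPM. *Pdhb* was at 247 CPM in the stimulated sgRNA library of replicate 6, with the others at 355 to 377 CPM.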

How the results depend on the processing

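Beside each count of members, the share of all tested genes called in the same setting stands in brackets. For a range of counts, the brackets hold the lowest and highest share over the settings. These need not come from the settings that gave the end counts. The members higher with isoproterenol went from 3 (2.06%) to 12 with the replicate block, which pairs libraries by number (10.9%), 7 in DESeq2 (3.64%), 12 in DESeq2 with the block (10.9%), 10 with the ribosomal RNA share as covariate (3.16%), 17 with covariate and block (9.94%), and 16 with the 3 libraries above 40% ribosomal RNA left out under the block (8.25%). With a library or number left out they ranged from 0 (without replicate 4, 0.732%) to 5 (without the empty vector control library of replicate 6, 2.7%). The shares over all these settings were 0.6% to 2.91%. With a number left out and the block added the members higher ranged from 9 to 12 (6.79% to 8.26%). The members lower went from 1 (2.43%) to 8 (10.4%), 2 (3.76%), 8 (9.89%), 2 (3.52%), 7 (9.35%) and 7 (7.42%) in the same settings, to 2 with no filter on low counts (0.945%), and with libraries or numbers left out ranged from 0 to 3 (0.427% to 3.51%), or were 6 with the block added (6.43% to 7.82%). In empty vector cells the 0 (0.913%) became 13 with the block (9.57%), 16 in DESeq2 with the block (10.5%), 16 with covariate and block (7.88%), 10 with the 3 libraries left out under the block (4.64%), 0 to 1 with libraries or numbers left out (0.264% to 1.52%), and 4 to 10 with the block added to these (4.44% to 6.92%). In sgRNA cells the 1 (0.722%) became 10 (8.4%), 12 (9.33%), 14 (9.03%) and 17 (11.8%) in these settings, 0 with the 3 libraries left out and no block (0.712%), 0 to 1 with libraries or numbers left out (0.219% to 0.784%), and 5 to 10 with the block added to these (4.02% to 5.64%). For the averaged sgRNA effect the 0 (0%) became 1 with the block (0.586%), 2 in DESeq2 with the block (1.17%), 1 with the 3 libraries left out under the block (0.28%), 0 with libraries or numbers left out (0% to 0.0149%), and 0 to 1 with the block added to these (0.161% to 0.265%). In stimulated cells DESeq2 with the block gave 2 (0.357%). The sgRNA effect in control cells and the interaction gave 0 in every setting run (0% for both without the block, and 0.038% and 0% with it). Their shares in the other settings are not given here. Over 739 values of 21 results for single members, 548 kept direction and side of the threshold, 50 lost and 141 gained the threshold, and 0 changed direction. With the block, *Hk1*, *Gapdh*, *Eno1*, *Pkm*, *Ldhb*, *Pdhb*, *Dlat*, *Pdk4*, *Pcx*, *Pck1*, *Pygb* and *Ugp2* passed whichever replicate number was left out. Beyond the smaller number of libraries in those fits, the cause was not tested. Depth limits members near 1 CPM, such as *Eno2*, *Gys2*, *Pygm* and *Ppp1r3c*.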
